A study of Mus musculus with 32 samples.

Results

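The genes described here are induced by type I interferon. A list of 34 mouse symbols was matched by name to the array's probe sets, and 29 of the 34 were measured among 15780 named genes. Ifit3, Isg15, Oas1a, Ifi44 and Ddx58 were not analysed here. The list uses no measured value as its rule.

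Whole-kidney RNA was measured on Affymetrix arrays in 32 kidneys of lupus-prone mice in 5 groups. The 30-week group (n = 7) held untreated, non-proteinuric NZB/W mice aged 30 weeks. The early triple group (n = 8) held NZB/W mice in early remission after CTX+CTLA4Ig+anti-CD154, that is cyclophosphamide with blockade of the CD28 and CD40 costimulatory pathways. The late triple group (n = 6) held NZB/W mice in late remission after the same therapy. The late TACI-Ig group (n = 5) held NZB/W mice in late remission after Ad-TACI-Ig+CTLA4Ig, in which an adenovirus encodes a soluble receptor that binds BAFF and APRIL. The NZM2410 group (n = 6) held NZM2410 mice in remission after Ad-BAFF-R-Ig, an adenovirus for a soluble receptor that binds BAFF. The labels give no age for the treated mice, and no proteinuric untreated kidneys were analysed here. Late and early remission differ in time, the TACI-Ig group also in treatment, and NZM2410 remission in strain, treatment and possibly age, so these cannot be told apart. The sample names give 1 mouse code to both replicate 6 of the 30-week group and replicate 1 of the early triple group.

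Type I interferons signal through the receptor IFNAR1 and IFNAR2 and the kinases bound to it, which activate a complex of STAT proteins with IRF9. That complex binds the interferon-stimulated response element and switches on a large set of antiviral genes, among them Irf7, which amplifies the response, and Usp18, which restrains it. A raised level of these transcripts in blood and kidney is a known feature of lupus, and many of the same genes also respond to interferon gamma.

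The core of that response element was searched on both strands in RefSeq promoter windows (GRCm38.p6, 250 bases before to 50 after each start), with overlapping matches counted. The core is the run GAAANNGAA with 1 further A. Of the 29 measured genes, 19 had a window in the table. The core was present in 9 of these 19 genes, Ifit1, Rsad2, Stat2, Ifih1, Gbp2, Gbp3, Bst2, Eif2ak2 and Trim30a, that is in 10 of their 23 windows, and in 3.44% of all 32851 windows or 3.99% of all 27025 genes. GAAANNGAA alone was also present in Samd9l, so in 10 of the 19, and in 9.76% of all genes. The 6 genes whose match lay within 130 bases before the start are shown 5′ to 3′ on the strand of the gene, since they include the widest-ranging gene of the list (Ifit1) and 2 of the genes that differed most between strains (Gbp2 and Bst2). The capitals mark the matches to the core or its reverse complement.
Ifit1 (chr19:34640759-34640888, plus strand): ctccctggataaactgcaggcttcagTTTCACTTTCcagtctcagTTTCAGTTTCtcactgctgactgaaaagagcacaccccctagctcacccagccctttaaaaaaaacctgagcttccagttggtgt
Rsad2 (chr12:26456453-26456582, minus strand): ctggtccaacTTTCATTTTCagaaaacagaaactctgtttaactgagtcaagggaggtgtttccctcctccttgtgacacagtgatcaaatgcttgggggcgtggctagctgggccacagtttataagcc
Gbp2 (chr3:142620533-142620662, plus strand): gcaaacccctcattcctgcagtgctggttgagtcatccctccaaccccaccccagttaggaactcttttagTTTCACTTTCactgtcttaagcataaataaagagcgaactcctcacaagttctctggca
Gbp3 (chr3:142559914-142560043, plus strand): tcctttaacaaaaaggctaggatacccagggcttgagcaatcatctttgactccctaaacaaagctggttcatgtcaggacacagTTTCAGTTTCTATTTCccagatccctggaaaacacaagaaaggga
Bst2 (chr8:71537473-71537602, minus strand): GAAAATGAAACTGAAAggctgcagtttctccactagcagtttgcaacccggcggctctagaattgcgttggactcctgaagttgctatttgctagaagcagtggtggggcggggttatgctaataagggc
Trim30a (chr7:104465194-104465323, minus strand): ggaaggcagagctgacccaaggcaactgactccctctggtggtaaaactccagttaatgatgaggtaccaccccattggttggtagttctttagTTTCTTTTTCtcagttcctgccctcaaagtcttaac
Matches overlapped in Gbp3 and in Bst2, and Ifit1 had 2 separate ones. A match is a run of letters in a window, and binding was not measured in these kidneys.

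Values are log2 expression with 1 probe set per gene. Array medians ranged from 7.04 to 7.17. All 8 proximal tubule markers, 5 loop and distal tubule markers, 4 collecting duct markers and 5 podocyte markers that were measured had a mean log2 value above 6.07, as the label whole kidney states. The 5260 genes below that value are called dim here. Adrenal cortex markers varied between kidneys, with a mean centred level between -1.33 and 2.37 in the 30-week group, between -1.65 and 1.97 in the early triple group, between -1.33 and -1.11 in the late TACI-Ig group, between 0.0027 and 0.48 in the late triple group and between -1.5 and -1.23 in NZM2410, and their part in the results was not tested. The SD over genes of an array was 1.90 to 2.03 in NZB/W and 2.11 to 2.17 in NZM2410. The late triple group had a further limit. When the 12 kidneys of the untreated and late TACI-Ig groups were averaged together, the late triple mean of each of the 29 genes differed from that average by at most 0.013, where the median standard error of the difference was 0.19. The largest such difference over all genes was 0.0255, where the median standard error was 0.075. The level of the late triple group can therefore not be told apart from that average, and whether the authors' batch correction set it was not tested. The group was compared only with the early triple group.

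The interferon-inducible genes were well expressed and varied more between kidneys of a group than most genes did. Their median position was the 62.3rd percentile of all genes by mean level, and only Herc6, Mx1 and Dhx58 were dim. The median SD within groups was 0.32 for the 29 genes and 0.14 for all genes. The range within a group was widest for Ifit1 (3.01), which encodes an antiviral RNA-binding protein, Ifi27l2a (2.53), a small interferon-induced membrane protein, and Irf7 (2.48).

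The genes moved together from kidney to kidney. After each group's mean was removed, the median correlation over the 406 pairs of genes was r = 0.66 (rho = 0.64) across 32 kidneys, and 400 pairs were above 0. The median over all gene pairs was 0.01. Without replicate 2 of the 30-week group it was 0.64, and within single groups it ran from 0.50 in the early triple group to 0.79 in both late groups. Parp14, an ADP-ribosyltransferase, followed the mean of the other members most closely (r = 0.95), then Ifit1 (r = 0.93). Stat2, the STAT protein particular to type I and III interferon signalling, followed it least (r = 0.24), and Gbp3 was next (r = 0.55). These correlations describe kidneys that share arrays and cell composition, and carry no test.

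**Figure D1:**
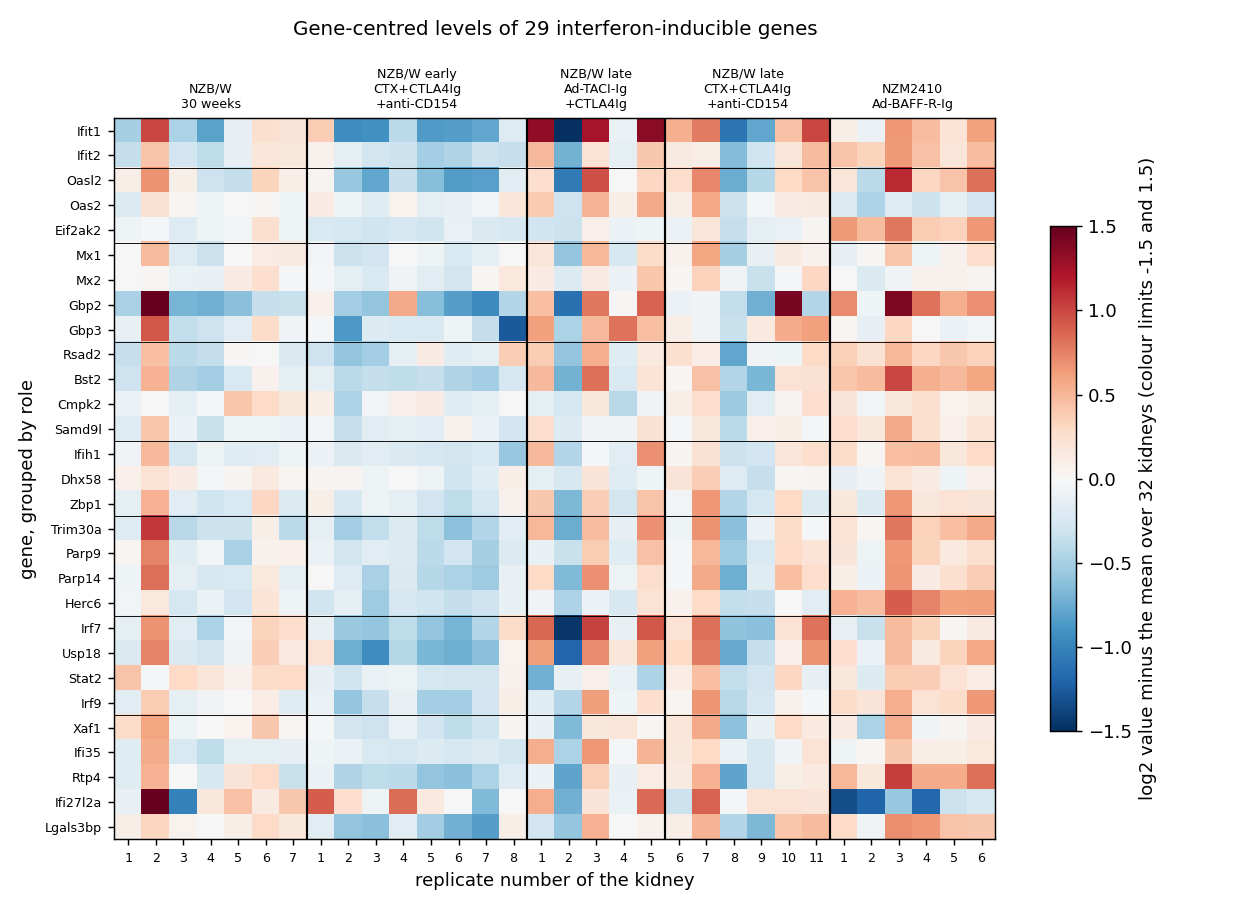
Log2 values of the 29 measured interferon-inducible genes in 32 kidneys, each gene minus its mean over all kidneys, with columns grouped by treatment group and lines between groups of genes by role. Whole columns share 1 colour, as in replicate 2 of the 30-week group (high) and replicate 2 of the late TACI-Ig group (low), while Herc6, Eif2ak2 and Ifi27l2a differ between NZM2410 and the NZB/W groups.

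A score was taken as the mean of the 29 centred values in each kidney, on the log2 scale. It averaged 0.01 ± 0.27 (SD, n = 7) in the 30-week group, -0.26 ± 0.15 (n = 8) in the early triple group, 0.07 ± 0.44 (n = 5) in the late TACI-Ig group, 0.04 ± 0.35 (n = 6) in the late triple group and 0.24 ± 0.20 (n = 6) in NZM2410. The early triple group was lowest in mean, with 7 of its 8 kidneys between -0.39 and -0.11 and replicate 1 at -0.0007. It still overlapped the other 3 NZB/W groups, whose lowest kidneys were at -0.22 (30-week), -0.63 (late TACI-Ig) and -0.48 (late triple). Those 3 groups also overlapped one another, and their means differed by less than 1 SD.

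Single kidneys set the extremes. Replicate 2 of the 30-week group had a score of 0.55, while the other 6 lay between -0.22 and 0.15. It held the group's highest value of 24 of the 29 genes, and of 26.2% of all genes. Its Gbp2 value was 9.71, against 7.34 to 7.73 in the other 6 kidneys, and its Stat2 value of 6.53 was the lowest of the group. Without it the group averaged -0.08 ± 0.14 (n = 6). Replicate 2 of the late TACI-Ig group had a score of -0.63, while the other 4 lay between -0.07 and 0.44. It held the group's lowest value of 27 of the 29 genes, and of 28% of all genes. Its Ifit1 value was 5.44, against 7.01 to 8.46 in the other 4. Without it the group averaged 0.25 ± 0.22 (n = 4).

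**Figure D2:**
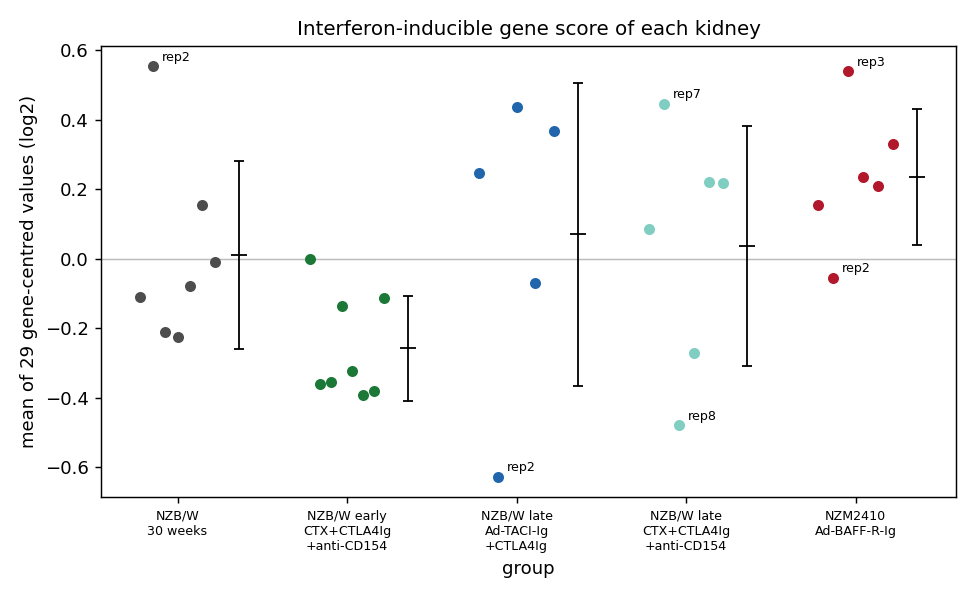
Mean of the 29 gene-centred log2 values of each kidney (points) by group, with the group mean and SD as bars. The early triple kidneys sit at or below 0, and replicate 2 of the 30-week group (0.55) and replicate 2 of the late TACI-Ig group (-0.63) stand farthest from the rest of their groups.

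The first comparison asks how early remission after triple therapy differed from untreated kidneys before proteinuria. All 29 genes had a lower mean in the early triple group, where 40.4% of all genes did, and their median log2 difference was -0.23 against 0.02 for all genes. No single gene passed limma's test at an adjusted p of 0.05: 0 of the 29 members and 0.0% of all 15780 genes were called, and at an unadjusted p under 0.05, 15 members were lower (3.37% of all genes) and 0 higher (5.42%). Because the members move together, these 15 are not separate observations. For 13 members, all 8 early triple kidneys lay below the 30-week mean, and for none did the groups separate completely (0.133% of all genes did). The count of 13 was not taken over all genes or without replicate 2 of the 30-week group. That kidney raised the 30-week mean of 26 members. Without replicate 2 of the 30-week group, 25 of the 29 were lower (40.4% of all genes), the median was -0.16, and 11 were lower at an unadjusted p under 0.05, where 5.04% of all genes were.

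Oasl2, a protein of the oligoadenylate synthetase family, had the largest difference. It ranged from 6.91 to 7.94 (median 7.36) in the 30-week group and from 6.43 to 7.30 (median 6.66) in the early triple group, a log2 difference of -0.60 (95% interval -0.93 to -0.27, limma adjusted p = 0.255). The groups overlapped through 3 early triple kidneys, replicates 1, 4 and 8, that lay inside the 30-week range. Lgals3bp, a secreted galectin-binding glycoprotein, ranged from 9.88 to 10.20 (median 9.97) at 30 weeks and from 9.05 to 9.97 (median 9.33) after triple therapy. Its difference was -0.59 (-0.84 to -0.34, limma adjusted p = 0.127), and replicate 8 was the 1 early triple kidney that reached the 30-week range. Usp18, the protease that removes ISG15 and damps receptor signalling, ranged from 7.06 to 8.07 (median 7.28) and from 6.40 to 7.54 (median 6.67), with a difference of -0.55 (-0.94 to -0.17, limma adjusted p = 0.387). Early triple replicates 1 and 8 again lay within the 30-week range.

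Of the regulators, Stat2 was the most uniform. It lay between 6.53 and 6.98 (median 6.82) at 30 weeks and between 6.24 and 6.61 (median 6.35) in the early triple group, a difference of -0.39 (-0.54 to -0.24, limma adjusted p = 0.127), and only early triple replicate 8 exceeded the lowest 30-week kidney. The calls of Stat2 and Lgals3bp turned with 1 kidney. Without replicate 2 of the 30-week group the Stat2 difference was -0.42 at a limma adjusted p of 0.0348. Without early triple replicate 8, Stat2 (-0.42, limma adjusted p = 0.0301) and Lgals3bp (-0.66, adjusted p = 0.015) both passed. In either fit 0.038% of all genes were called lower. The 30-week kidney left out was its group's lowest in Stat2 (6.53). The early triple kidney left out was its group's highest in Stat2 (6.61) and Lgals3bp (9.97). Leaving these kidneys out therefore widens the differences by construction. Irf7 ranged from 7.17 to 8.33 (median 7.60) and from 6.96 to 7.93 (median 7.15), with a difference of -0.45 (-0.80 to -0.10, adjusted p = 0.439 by limma). Ifit1 ranged from 6.30 to 8.10 (median 6.98) and from 6.17 to 7.48 (median 6.30), a difference of -0.50 (-1.01 to 0.02, limma adjusted p = 0.583), and only replicates 2, 3, 5 and 6 of the early triple group lay below every 30-week kidney. Irf9, the DNA-binding partner of the STAT proteins, differed by -0.28 (-0.51 to -0.06).

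By role, the median difference was -0.42 over the 4 regulators, -0.37 over the 2 IFIT genes and -0.39 over 5 other induced genes (Rtp4, Xaf1, Lgals3bp, Ifi35 and Ifi27l2a). It was -0.29 over the enzymes that work with ISG15, ubiquitin or ADP-ribose (Herc6, Trim30a, Parp9 and Parp14), and -0.18 over the large GTPases Mx1, Mx2, Gbp2 and Gbp3, which block intracellular pathogens. It was nearest 0 for the sensors of nucleic acid Ifih1, Dhx58 and Zbp1 (-0.14) and for 4 other antiviral effectors, Rsad2, Bst2, Cmpk2 and Samd9l (-0.12). Oas2, Ifi27l2a and Rsad2 had the smallest differences, from -0.05 to -0.01, so Oas2 and Oasl2 of 1 family lay at opposite ends.

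Leukocyte markers lay in part on the same side. Of 14 macrophage and dendritic cell markers, 12 had a lower mean in the early triple group (median -0.17, 0 called), and of 10 T cell markers 7 did (median -0.04, 0 called). The macrophage score ran from -0.41 to 1.28 in the 30-week group and from -0.65 to 0.44 in the early triple group, and the T cell score from -0.32 to 0.72 and from -0.13 to 0.18. The macrophage markers Itgam and Cd209a, and 7 of the 10 T cell markers, Cd3g, Cd247, Cd2, Cd5, Cd28, Cd8a and Cd8b1, were dim. Their part in the result was not tested, and in whole-kidney RNA fewer cells of a type and less RNA per cell cannot be told apart.

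Late remission after Ad-TACI-Ig+CTLA4Ig was compared with the same 30-week kidneys. The members lay on both sides: 19 were above and 10 below the 30-week mean (41.3% of all genes were below), with a median of 0.08 against 0.04 for all genes. By limma 0 members and 0.0% of all genes were called, and at an unadjusted p under 0.05, 2 members were lower (9.67% of all genes) and 0 higher (10.7%). The widest differences were those of Ifit1, Stat2 and Gbp2. Ifit1 was 8.43, 5.44, 8.34, 7.01 and 8.46 in the 5 TACI-Ig kidneys and 6.30 to 8.10 (median 6.98) at 30 weeks, so that 3 kidneys lay above and 1 below the whole 30-week range. Its difference was 0.50 (-0.52 to 1.51, limma adjusted p = 0.53).

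Stat2 went the other way from most members. It was 5.82, 6.44, 6.63, 6.45 and 6.08 in the TACI-Ig kidneys and 6.53 to 6.98 (median 6.82) at 30 weeks, a difference of -0.48 (-0.75 to -0.21, limma adjusted p = 0.203). All 5 kidneys lay below the 30-week mean, and only replicate 3 entered the 30-week range. Gbp2, an interferon-induced GTPase, was 8.51, 6.94, 8.86, 8.08 and 8.95, against 7.34 to 9.71 (median 7.58), a difference of 0.43 (-0.45 to 1.31, limma adjusted p = 0.531). Irf7 was 8.51, 6.19, 8.66, 7.53 and 8.58, against 7.17 to 8.33, with a difference of 0.18 (-0.60 to 0.96). As with Ifit1, replicates 1, 3 and 5 lay above every 30-week kidney and replicate 2 below all of them.

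Without replicate 2 of the TACI-Ig group, limma called Stat2 lower (-0.52, adjusted p = 0.0412) and Oas2, a synthetase of the second messenger that activates RNase L, higher (0.40, adjusted p = 0.0353), where 5.02% of all genes were called lower and 3.28% higher. The share of members called, 1 of 29 each way (3.45%), was near or below these. The number above the 30-week mean was then 23 and the median 0.26. Leaving out the lowest kidney raises the group's mean by construction.

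The late TACI-Ig kidneys were next compared with early remission after triple therapy, which was lower in score. Of the 29 genes, 25 were higher in mean and 4 lower (45.8% of all genes were lower), with a median of 0.30 against 0.01. With all 5 kidneys limma called 0 members and 0.0% of all genes, and at an unadjusted p under 0.05, 11 members were higher (6.29% of all genes) and 0 lower (8.52%). Stat2, Cmpk2, Dhx58 and Ifi27l2a were the 4 below, at -0.09 to -0.02. The largest differences were in Ifit1 (0.99, interval 0.07 to 1.91, limma adjusted p = 0.3), Gbp3 (0.78, 0.29 to 1.27, limma adjusted p = 0.167) and Usp18 (0.67, 0.06 to 1.28, limma adjusted p = 0.294).

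Gbp3 was 9.36, 8.26, 9.23, 9.56 and 9.19 in the TACI-Ig kidneys, and 7.48 to 8.73 (median 8.51) in the early triple group. Of these 5, 4 lay above all 8 early triple kidneys. Usp18 was 7.96, 6.14, 8.04, 7.51 and 7.94, and 6.40 to 7.54 (median 6.67) in the early triple group. Here 3 lay above every early triple kidney, replicate 4 just inside the range and replicate 2 below it.

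Replicate 2 of the TACI-Ig group was its lowest kidney in 27 members, so leaving it out raises their mean by construction. With it 0 members were called. Without it, 14 of the 29 members were called higher by limma, where 2.43% of all genes were called higher. They were Ifit1 (1.52, adjusted p = 0.00957), Irf7 (1.06, adjusted p = 0.0122), Usp18 (1.02, adjusted p = 0.0101), Gbp3 (0.99, adjusted p = 0.0125), Gbp2, Oasl2, Trim30a, Bst2, Ifi35, Parp14, Ifit2, Ifih1, Rtp4 and Oas2. None was called lower, and Stat2 was among the 2 members with a lower mean. In a fit over all 5 groups, which share 1 estimate of the spread, Gbp3 was the 1 member that passed (limma adjusted p = 0.0495), where 0.292% of all genes were called higher. The 4 kidneys without replicate 2 had macrophage scores from -0.53 to 0.995 and T cell scores from -0.21 to 0.44, replicate 2 had -0.68 and -0.33, and the 8 early triple kidneys had -0.65 to 0.44 and -0.13 to 0.18. The part of these cells in the difference was not tested.

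**Figure D3:**
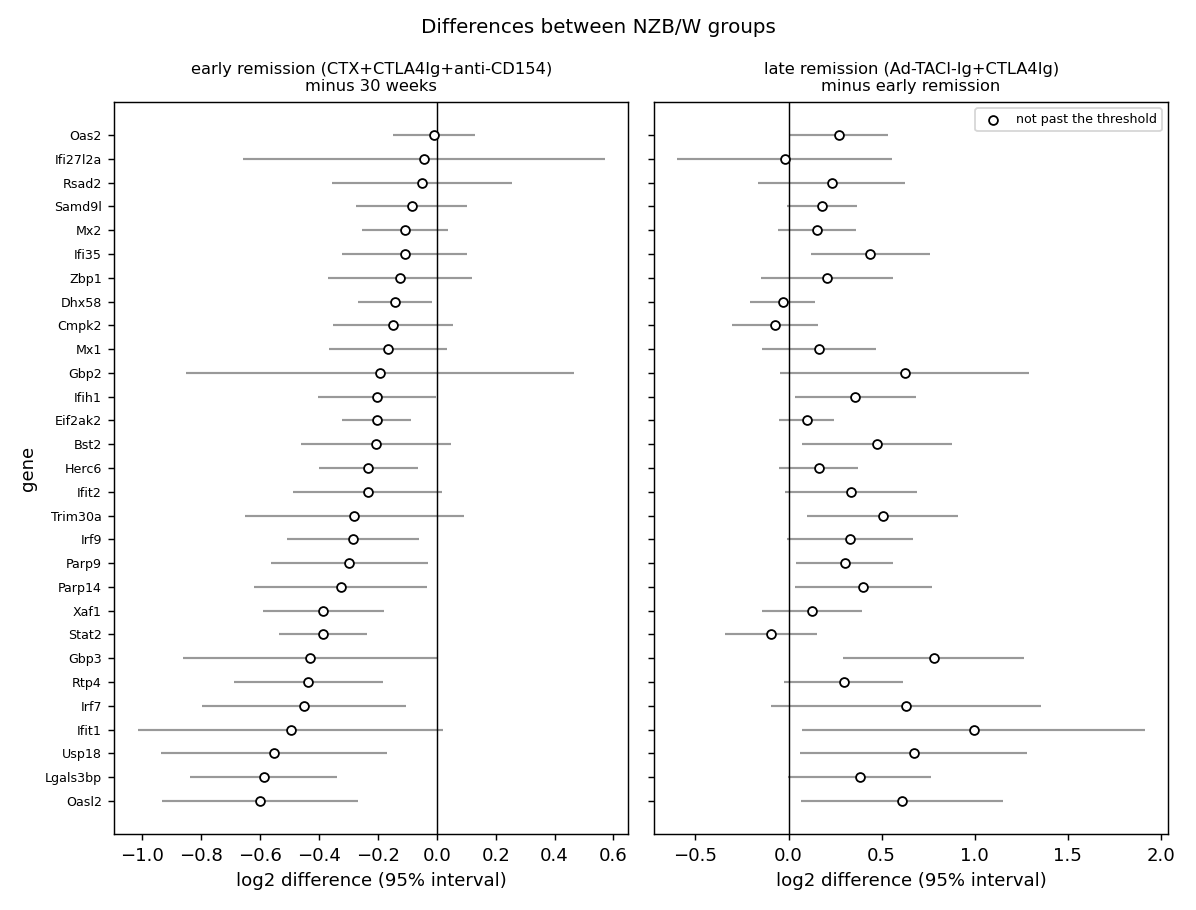
Log2 difference of each of the 29 genes, with its 95% interval, for early triple minus 30-week kidneys (left) and late TACI-Ig minus early triple kidneys (right), genes ordered by the left panel. All 29 points lie below 0 on the left and 25 above 0 on the right, and none passed the adjusted threshold. Both panels use the early triple kidneys.

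Late and early remission after the same triple therapy were compared within the limit stated above. Since each late triple mean equalled the average of the 30-week and TACI-Ig kidneys to within 0.013, the size and sign of these differences follow from those 2 groups' differences from the early triple group, and they are no separate observation of late triple remission. All 29 genes were higher in mean in the late group (54.8% of all genes were lower), with a median of 0.28 against -0.01. By limma 0 members were called, and of all genes 0.0697% were called lower and 0.0% higher. Under limma's unadjusted threshold of 0.05, 15 members were higher (1.5% of all genes) and 0 lower (3.81%). Ifit1 ranged from 6.0 to 8.10 (median 7.59) in the late group and from 6.17 to 7.48 (median 6.30) in the early group, a difference of 0.71 (0.05 to 1.37, limma adjusted p = 0.862). Usp18 ranged from 6.57 to 8.11 (median 7.52) in the late group, a difference of 0.61 (0.11 to 1.10, limma adjusted p = 0.728). Oasl2 ranged from 6.53 to 7.99 (median 7.55), a difference of 0.60 (0.17 to 1.04, limma adjusted p = 0.576).

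The late triple kidneys varied among themselves, with a score SD of 0.35 against 0.44 in the TACI-Ig kidneys. Replicate 7 held the highest value of 22 members and replicate 8 the lowest of 21, with scores of 0.45 and -0.48. Irf7 ranged from 7.03 to 8.48 (median 7.86) and Stat2 from 6.18 to 7.00 (median 6.54) in this group. For Gbp3, whose values ran from 8.41 to 9.36 (median 8.87), all 6 late kidneys lay above the early triple mean. The early triple kidneys are shared with the 2 comparisons above, which are therefore not independent of this one.

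Herc6, Eif2ak2 and Rtp4 were higher in NZM2410 kidneys in remission than in 30-week and late TACI-Ig NZB/W kidneys, and Ifi27l2a and Oas2 were lower. No untreated NZM2410 kidneys were among the 5 groups. In these comparisons a rise or fall therefore means a level above or below NZB/W, not a change with remission. Against the 30-week NZB/W group, 11 of the 29 members were called higher by limma and 2 lower, and against the late TACI-Ig group 6 were called higher and 2 lower. The strains differed over much of the genome: 62.8% of all genes were called against the 30-week group (31.5% higher, 31.3% lower) and 59.5% against the TACI-Ig group (28.6% higher, 30.9% lower). The members' shares of 44.8% and 27.6% were below these. With each array centred on its median, all genes split into 23.7% higher and 36.7% lower against the 30-week group. The member median was 0.23 in the first comparison and 0.21 in the second, against 0.02 and 0.00 for all genes. The all-gene medians include the dim genes, whose medians were -0.26 and -0.32. Of the members 3 were dim, 14 were among the 5260 genes of middle level and 12 among the 5260 highest. The middle and highest sets had medians of 0.08 and 0.11 in the first comparison and 0.07 and 0.15 in the second. In the first, 38.5% and 37.8% of these sets were called higher, as were 37.9% of members. In the second, 33.9% and 38.3% were, and 20.7% of members. Both comparisons use the same 6 NZM2410 kidneys, and strain, treatment and the spread of array values cannot be told apart in them.

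Herc6 and Eif2ak2 were the members that separated the strains completely. Herc6, an E3 ligase for ISG15, lay between 6.30 and 6.74 (median 6.44) in NZM2410, between 5.55 and 6.04 (median 5.77) at 30 weeks, and was 5.78, 5.38, 5.75, 5.59 and 6.05 in the TACI-Ig kidneys. It rose by 0.70 against the 30-week group (0.50 to 0.89, limma adjusted p = 1.17e-05) and by 0.77 against the TACI-Ig group (0.52 to 1.01, adjusted p = 8.42e-05). Eif2ak2, which encodes PKR, the double-stranded RNA-activated kinase that halts translation, lay between 6.68 and 7.11 (median 6.89) in NZM2410, between 6.13 and 6.57 (median 6.26) at 30 weeks, and was 6.03, 6.0, 6.41, 6.24 and 6.26 in the TACI-Ig kidneys. It was higher by 0.58 (0.41 to 0.75, limma adjusted p = 2.15e-05) and by 0.69 (0.47 to 0.90, adjusted p = 7e-05). No NZB/W kidney of either group reached the lowest NZM2410 value of these genes. The groups did not overlap for 36.4% of all genes in the first comparison and 38.5% in the second.

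Rtp4, a receptor transporter protein, rose in both comparisons, by 0.57 (0.25 to 0.89, limma adjusted p = 0.00424) and 0.71 (0.31 to 1.11, adjusted p = 0.00536). Its values were 7.25 to 8.12 (median 7.64) in NZM2410, 6.75 to 7.61 (median 7.1) at 30 weeks, and 7.0, 6.30, 7.45, 6.98 and 7.2 in the TACI-Ig kidneys. Bst2, or tetherin, which holds budding virus at the cell surface, was 8.95 to 9.53 (median 9.04) in NZM2410 and 8.01 to 9.05 (median 8.29) at 30 weeks, a rise of 0.73 (0.42 to 1.05, limma adjusted p = 0.000534). Only replicate 2 of the 30-week group entered the NZM2410 range. Against the TACI-Ig kidneys (9.02, 7.82, 9.36, 8.30 and 8.73) the Bst2 difference was 0.47 (-0.01 to 0.95, limma adjusted p = 0.087).

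Gbp2 was called higher against the 30-week group, by 0.91 (0.19 to 1.63, limma adjusted p = 0.0292), with 8.0 to 9.47 (median 8.76) in NZM2410 and 7.34 to 9.71 (median 7.58) at 30 weeks. Its highest 30-week value was that of replicate 2, without which the difference was 1.22 at a limma adjusted p of 4.24e-05. The Gbp2 call was kept in 12 of 20 alternatives. It was lost when the arrays were quantile normalized again (0.83), with the replicate number as a block (0.89), and without replicate 1, 3, 4 or 5 of the 30-week group or 3 or 4 of NZM2410, where the lowest difference was 0.76. The smallest rises that passed were those of Ifih1, the RNA sensor MDA5 (0.33, adjusted p = 0.0156), Samd9l, a translation-regulating antiviral factor (0.31, adjusted p = 0.0168), and Lgals3bp (0.25, adjusted p = 0.0444), and all 3 were lost under that normalization. Ifih1 and Lgals3bp were also lost with the replicate block. Ifih1 was kept in 18 of 20 alternatives, Samd9l in 19 and Lgals3bp in only 6. Lgals3bp was lost without replicate 1, 3, 4, 5 or 7 of the 30-week group or 3, 4, 5 or 6 of NZM2410, in the fit over all 5 groups, with median centring and with dim genes left out. Ifih1 was 8.43 to 8.86 (median 8.68) in NZM2410 and 8.13 to 8.88 (median 8.32) at 30 weeks, and Samd9l 10.18 to 10.67 (median 10.33) and 9.77 to 10.52 (median 10.02). In both genes replicate 2 of the 30-week group lay within the NZM2410 range or above it. Ifit2, Rsad2 and Irf9 rose by 0.47, 0.48 and 0.37.

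Ifi27l2a and Oas2 were the members called lower in NZM2410. Ifi27l2a lay between 8.72 and 9.80 (median 9.17) in NZM2410, between 9.03 and 11.56 (median 10.21) at 30 weeks, and was 10.60, 9.33, 10.24, 9.95 and 10.90 in the TACI-Ig kidneys. It fell by 1.03 against the 30-week group (interval -1.69 to -0.36, limma adjusted p = 0.0103) and by 0.96 against the TACI-Ig group (-1.56 to -0.36, adjusted p = 0.00891). Oas2 was 7.34 to 7.66 (median 7.56) in NZM2410, 7.59 to 8.03 (median 7.79) at 30 weeks, and 8.20, 7.49, 8.31, 7.90 and 8.37 in the TACI-Ig kidneys. It fell by 0.26 (-0.41 to -0.11, limma adjusted p = 0.00437) and by 0.52 (-0.82 to -0.22, adjusted p = 0.00549). All 6 NZM2410 kidneys lay below the mean of each NZB/W group for both genes.

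Stat2 was called only against the TACI-Ig group. It was 6.35 to 6.93 (median 6.74) in NZM2410, a rise of 0.44 over that group (0.13 to 0.75, limma adjusted p = 0.0182) and a difference of -0.04 (-0.24 to 0.16) from the 30-week group, and whether these differences differ was not tested. Lgals3bp (0.46, adjusted p = 0.0399) and Cmpk2, a mitochondrial nucleotide kinase (0.26, adjusted p = 0.0347), rose against the TACI-Ig group too, and these calls were kept in 8 and 6 of 18 alternatives. Both were lost without TACI-Ig replicate 1, 2 or 4, without NZM2410 replicate 3, 4 or 6, under quantile normalization, with median centring and with array weights. Lgals3bp was 9.83 to 10.57 (median 10.30) in NZM2410 and 9.59, 9.29, 10.40, 9.88 and 9.94 in the TACI-Ig kidneys, and Cmpk2 was 7.43 to 7.71 (median 7.60) and 7.34, 7.21, 7.64, 7.05 and 7.42. The groups overlapped in both genes. Ifit1 and Irf7, which ranged widely within NZB/W groups, were narrow in NZM2410, at 7.02 to 7.76 (median 7.44) and 7.32 to 8.13 (median 7.73). Their differences were 0.39 (-0.12 to 0.90) and 0.03 (-0.34 to 0.39) from the 30-week group.

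Leaving out 1 kidney moved the counts. The 30-week kidney left out was its group's highest in 24 members, and the TACI-Ig kidney its group's lowest in 27. The shifts therefore follow in part by construction. Without replicate 2 of the 30-week group, 18 members were called higher in NZM2410 and 2 lower, where 64.5% of all genes were called (32.5% higher). Without TACI-Ig replicate 2, 4 were called higher and 4 lower, where 60.6% of all genes were called (28.7% higher), with Irf7 (-0.58, adjusted p = 0.0338) and Gbp3 (-0.58, adjusted p = 0.00031) then among the lower. Leukocyte markers are given beside these counts. Of 14 macrophage and dendritic cell markers 0 were called higher against either NZB/W group, and 1 was called lower against the TACI-Ig group. Their score ran from -0.70 to 0.98 in NZM2410. Of 10 T cell markers 1 was called higher and 5 lower against the 30-week group, and 1 higher and 6 lower against the TACI-Ig group. Of 9 B and plasma cell markers 8 were lower and 0 higher against each. Of 8 neutrophil markers 5 were lower and 1 higher against the 30-week group, and 6 lower and 0 higher against the TACI-Ig group. Adrenal cortex markers were lower against the 30-week group in 7 of 7 (median -2.88). Against the TACI-Ig group 2 of the 7 were lower and 1 higher (median -0.10). The 5 loop and distal tubule markers were higher against each (medians 0.70 and 0.73), with 3 and 2 of 4 collecting duct markers and 2 and 6 of 8 proximal tubule markers. Dim genes were 7 of the 10 T cell, 6 of the 9 B and plasma cell and 5 of the 8 neutrophil markers. Of all dim genes, 56.5% were called lower against the 30-week group and 58.4% against the TACI-Ig group. After quantile normalization again, T cell markers called lower were 3 and 2 in that order, B and plasma cell markers 8 and 7, and neutrophil markers 5 and 5. Proximal tubule markers called higher were then 1 and 2, and loop and distal tubule markers 4 and 3 (medians 0.36 and 0.41). Of the macrophage and dendritic cell markers, 1 was then higher and 1 lower against the 30-week group. Against the TACI-Ig group 1 was then higher and 2 lower. The part of the marker genes in the members' differences was not tested.

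**Figure D4:**
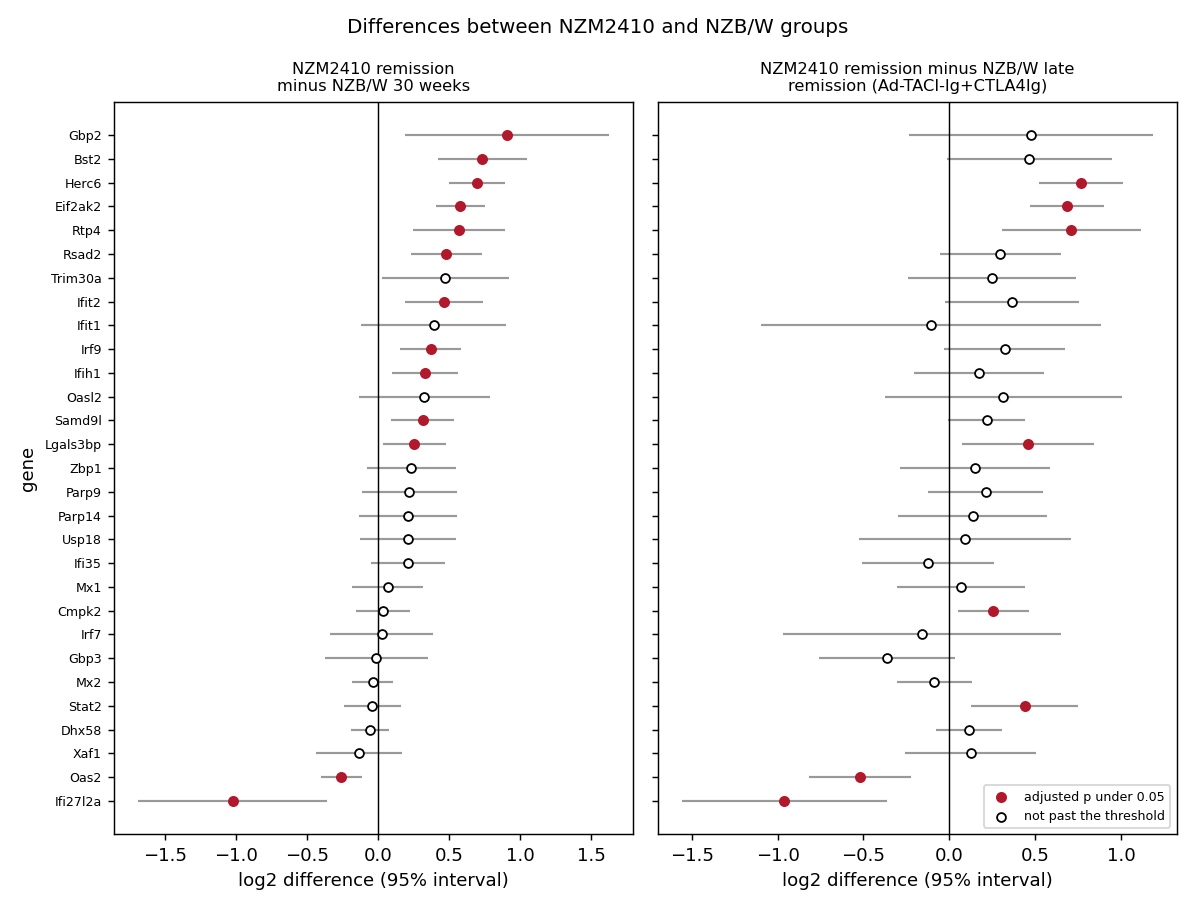
Log2 difference of each of the 29 genes, with its 95% interval, for NZM2410 remission minus NZB/W 30-week kidneys (left) and minus NZB/W late TACI-Ig kidneys (right). Filled points passed an adjusted p of 0.05: 11 above and 2 below 0 on the left, 6 above and 2 below on the right. Both panels use the same NZM2410 kidneys.

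Upstream of the members, the interferon genes themselves were low. Of 7 measured ligands, Ifna4, Ifna5, Ifna11, Ifnab, Ifnb1 and Ifng were dim, and Ifna9 was not. None was called in the 4 comparisons within NZB/W, with median differences from -0.01 to 0.06. All 7 were called lower in NZM2410 in both comparisons (medians -0.47 against the 30-week group and -0.48 against the TACI-Ig group). Against the 30-week group 56.5% of all dim genes were called lower, and after the arrays were quantile normalized again 4 of 7 ligands were lower against the 30-week group and 1 of 7 against the TACI-Ig group. Ifnb1 averaged 5.38 ± 0.08 (SD) at 30 weeks, 5.42 ± 0.12 in the early triple group, 5.47 ± 0.24 in the late TACI-Ig group, 5.41 ± 0.15 in the late triple group and 5.05 ± 0.16 in NZM2410. Ifna9 fell by 0.70 and by 0.91 (limma adjusted p = 6.64e-08 and 1.2e-06).

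The receptor chains varied little between groups. Ifnar1 averaged 8.46 ± 0.09 at 30 weeks, 8.37 ± 0.12 and 8.41 ± 0.12 in the early triple and TACI-Ig groups, 8.44 ± 0.17 in the late triple group and 8.56 ± 0.10 in NZM2410. Ifnar2 averaged 8.51 ± 0.10, 8.45 ± 0.16, 8.34 ± 0.04, 8.44 ± 0.15 and 8.38 ± 0.10 in the same order. Neither was called in any of the 6 comparisons. Of 9 receptor chains and kinases, 0 were called within NZB/W. In NZM2410, 2 were called higher against the 30-week group (Jak1 by 0.22, Jak2 by 0.25), where 31.5% of all genes were. Against the TACI-Ig group 4 were called higher (Il10rb, Ifngr1, Jak1 and Ifnlr1), where 28.6% of all genes were. After quantile normalization again, 0 were higher and 2 lower against the 30-week group, and 4 were higher against the TACI-Ig group.

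Signal transducers and nucleic acid sensors were uncalled within NZB/W and called in both directions between strains, at shares that lay within a few points of those of all genes or below them (31.5% higher and 31.3% lower against the 30-week group, 28.6% and 30.9% against the TACI-Ig group). Of 11 transducers and regulators, 4 were called higher and 2 lower in NZM2410 than at 30 weeks. Irf3, a factor that starts interferon transcription, fell by 0.81 (adjusted p = 9.24e-08) and Nmi, an interferon-induced adaptor, rose by 0.67 (adjusted p = 0.000772). Of 18 genes of nucleic acid sensing, 6 were higher and 4 lower. Tlr9, the endosomal DNA receptor, rose by 1.05 (adjusted p = 1.37e-08) and Tlr3, the endosomal RNA receptor, by 0.84 (adjusted p = 1.45e-05). Against the TACI-Ig group the counts were 3 higher and 3 lower of 11, and 5 higher and 3 lower of 18.

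Genes induced mainly by interferon gamma were measured for 12 symbols. Within NZB/W 0 were called, and 9 of 12 were lower in early triple than in 30-week kidneys (median -0.26). In NZM2410, 4 of 12 were higher than at 30 weeks, where 31.5% of all genes were. They included Iigp1 by 1.16 (limma adjusted p = 0.011) and Igtp by 0.75 (limma adjusted p = 0.0172), GTPases that act on pathogen vacuoles. Ido1, which was dim, was lower. After quantile normalization again 3 of the 12 were higher and 0 lower. Against the TACI-Ig group 1 was higher and 2 lower, where 28.6% and 30.9% of all genes were. After that normalization the counts were 1 and 1. Cxcl10, a chemokine for activated T cells, averaged 7.54 ± 0.54 at 30 weeks, 6.98 ± 0.50 in the early triple group, 7.20 ± 0.66 in the TACI-Ig group, 7.41 ± 0.67 in the late triple group and 7.81 ± 0.57 in NZM2410. It was called in no comparison (early triple minus 30-week -0.56, interval -1.06 to -0.05, limma adjusted p = 0.515).

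Across the 32 kidneys the member score moved with macrophage and T cell markers, and less with neutrophil markers. With group means removed, its correlation with the macrophage and dendritic cell score was r = 0.77 (rho = 0.76), with T cell markers r = 0.79, with genes of interferon gamma r = 0.88 and with nucleic acid sensing r = 0.85. With plasmacytoid dendritic cell markers, of which 4 of 7 were dim (Siglech, Ccr9, Klk1b27 and Pacsin1), it was r = 0.55, with proximal tubule markers r = -0.62 and with adrenal cortex markers r = 0.18. The correlation was r = 0.62 with B and plasma cell markers and r = 0.31 with neutrophil markers. Without replicate 2 of the 30-week group these 2 were 0.53 and 0.12, and those with macrophage and T cell markers 0.72 and 0.74. That kidney had the highest macrophage score of its group (1.28, the other 6 between -0.41 and 0.28). Replicate 11 of the late triple group was an exception, with a member score of 0.22 at a macrophage score of -0.40 and a T cell score of -0.35. Group means did not run together in the same way. NZM2410 had the highest mean member score (0.24) and the lowest mean T cell score (-0.23), with a mean macrophage score of -0.08. Its replicates 1, 4 and 5 had member scores of 0.15, 0.24 and 0.21 with both marker scores below 0. The points share arrays and whole-tissue composition, and the part of infiltrating cells in the member levels was not tested.

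**Figure D5:**
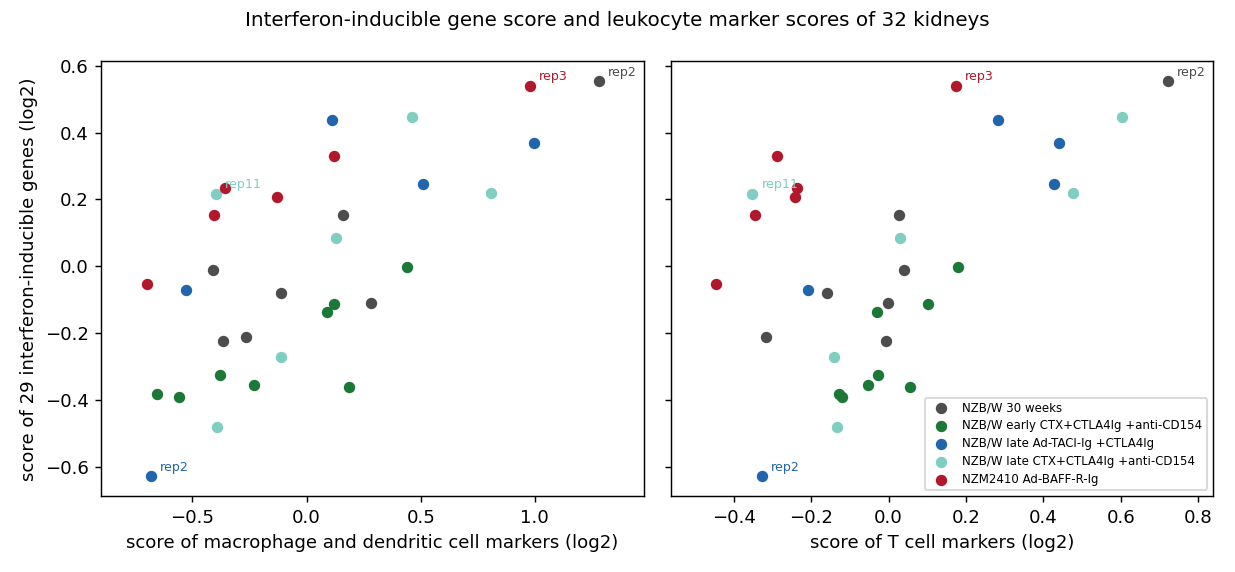
Score of the 29 interferon-inducible genes (vertical, log2) against the score of macrophage and dendritic cell markers (left) and T cell markers (right) in 32 kidneys, coloured by group. Within groups, kidneys high in one are mostly high in the other, and member scores run from -0.63 (late TACI-Ig replicate 2) to 0.55 (30-week replicate 2). Late triple replicate 11 (member score 0.22) and NZM2410 replicates 1, 4 and 5 (0.15, 0.24 and 0.21) have both marker scores below 0.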

How the data were processed

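Arrays of 32 whole kidneys were grouped by the sample labels. The deposited log2 values were made by the authors with RMA, per the submitters' processing notes, and the methods state joint normalization and batch correction, with batches and software version not given in the sources used here. Of 16539 probe sets, 15780 with a gene name were tested (64 array controls and 695 unnamed ones were left out), and 0 columns were unused. Arrays give no depth, so their number limits the precision. Nothing states that every sample is a separate mouse, and p-values measure the spread between these samples.

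Members, pathway and marker lists were chosen with earlier results of these data known. Each of 6 comparisons was fitted on its own groups alone with limma 3.58.1 (R 4.3.3, lmFit and eBayes), unpaired, with Benjamini-Hochberg adjustment over all genes, a threshold of 0.05 and 95% intervals. The fit was tested on simulated data. Scores are means of gene-centred values, computed with pandas 2.3.3 and numpy 2.4.6. Full values are given for members called in a comparison (the 5 highest and 5 lowest where over 10), the 3 with the largest differences where under 3 were called, the 3 with the widest range within a group, and Irf7, Ifit1 and Stat2. From each pathway list, called genes are named (at most 4 per comparison, largest difference first), with Ifnar1, Ifnar2, Ifnb1 and Cxcl10 in every group. Other members were named after their values were seen. Cross-hybridization between related genes such as Gbp2 and Gbp3 was not tested.

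Alternatives were median centring, a second quantile normalization, a joint fit of the 5 groups, a trended robust prior, and leaving out dim genes. Others were array weights, the replicate number as a block, letters and shared mouse codes of the sample names, and the study's filter. Each kidney was also left out in turn. What the letters stand for is not stated, and they followed the groups in part.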

Additional observations from a re-analysis of the deposited data

Results flagged for a closer look

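In groups of 4 to 10 kidneys, the gap between the most extreme kidney and its nearest neighbour was set against the group's range for each of the 29 genes and the score, 150 tests in all, of which 17 passed Dixon's 95% limit. Chance alone passes about 1 in 20. Replicate 2 of the 30-week group was high in 6 genes: Ifih1 at 8.88 (other kidneys 8.13 to 8.34), Gbp2 at 9.71 (7.34 to 7.73), Trim30a at 8.12 (6.64 to 7.15), Ifi35 at 9.06 (8.12 to 8.38), Parp14 at 8.70 (7.64 to 8.04) and Samd9l at 10.52 (9.77 to 10.04). Replicate 6 of that group was high in Eif2ak2 at 6.57 (6.13 to 6.30). In the early triple group, Ifih1 was low in replicate 8 at 7.83 (8.12 to 8.30) and Eif2ak2 high in replicate 6 at 6.22 (6.03 to 6.11).

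Replicate 2 of the late TACI-Ig group was low in Usp18 at 6.14 (7.51 to 8.04) and Gbp3 at 8.26 (9.19 to 9.56). In the late triple group, replicate 8 was low in Rsad2 at 7.68 (8.40 to 8.77) and Samd9l at 9.70 (10.08 to 10.27), and replicate 10 was high in Gbp2 at 9.48 (7.34 to 8.0). In NZM2410, replicate 3 was high in Gbp3 at 9.05 (8.62 to 8.77), Bst2 at 9.53 (8.95 to 9.12) and Samd9l at 10.67 (10.18 to 10.36).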

How the results depend on the processing

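No called value turned direction. The median over members kept its sign under every alternative run in 5 of the 6 comparisons, and in late TACI-Ig minus 30-week, where none was called, it ran from -0.01 to 0.26. Of the summary values, 419 stayed close to the reported ones and 16 moved. For early triple minus 30-week kidneys, members called lower became 2 with array weights and ran from 0 to 2 when single kidneys were left out. For late TACI-Ig minus 30-week, leaving out kidneys gave 0 to 1 called higher and 0 to 1 lower. For late TACI-Ig minus early triple, members called higher became 1 in the fit over all groups and ran from 0 to 14 without single kidneys. For NZM2410 minus late TACI-Ig, the study's filter left 2 higher and 0 lower, and leaving out kidneys gave 4 to 9 higher and 2 to 4 lower. For NZM2410 minus 30-week, members called higher became 3 (0 lower) under the study's filter, 7 after quantile normalization, 19 with array weights and 9 to 18 without single kidneys. The stricter response element, with C and T after the core, was present in 5 members. For the 30 named pairs of a gene and a comparison, with leave-outs taken at their lowest and highest difference, 249 values were unchanged in call, 22 lost and 6 gained one. Over all 29 members and every single leave-out, 6 of the 21 reported calls were lost 47 times in all, and 50 further calls were made only under an alternative or without a kidney. Replicate numbers were not treated as pairs. The correlation of same-numbered kidneys passed 0.1 in 3 of 7 pairs of early triple and 30-week kidneys (highest 0.34). It did so in 3 of 6 pairs of NZM2410 and 30-week kidneys (highest 0.23) and in at most 1 pair of each other comparison. These values do not settle whether samples were paired. With the replicate number as a block, 0 members were called in the 4 NZB/W comparisons, 6 higher and 2 lower in NZM2410 minus late TACI-Ig, and 8 higher and 2 lower in NZM2410 minus 30-week. Median centring lowered the NZM2410 medians from 0.21 to 0.15 and from 0.23 to 0.16.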
